A study of Mus musculus with 43 samples.

Results

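Gasdermins are pore-forming proteins, and 4 mouse members of the family, Gsdmc2, Gsdmc3, Gsdmc4 and Gsdmd, were followed through intestinal organoids treated with TGFB1 and crypt cells of irradiated mice. They were picked by symbol, and all 4 were found among the 23951 genes of each bulk RNA table and among the 54307 gene rows of each single-cell library. Because they were picked with measured values already known, their levels are described here without a test. Tests were kept for the other genes of the pathway, a list that was also chosen with results of these data known. Their p-values do not account for that choice.

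Bulk RNA-seq covered 18 libraries of wild-type C57BL/6 primary intestinal organoids in 6 groups of 3. Organoids without irradiation were collected on day 7 (D7 non-IR), and organoids given 4 Gy on day 4 were collected on day 7 (D7 IR) or day 11 (D11 IR). In each condition 1 group received vehicle and 1 received 2 ng/mL TGFB1, from day 6 for 24 h, so D11 organoids were collected days after the treatment had ended. Single-cell RNA-seq (PIPseq, a droplet method that reads 3′ ends) covered 4 libraries of organoids given 4 Gy on day 4 and collected on day 8, after vehicle (0 h) or after 6, 15 or 24 h of 1 ng/mL TGFB1. It also covered 3 libraries of RFP+ cells sorted from small intestinal crypts of Mki67tm1.1Cle/J mice, which carry a red fluorescent reporter of the proliferation protein Ki67. Of these, 1 came from a non-irradiated littermate (non-IR) and 2 came from mice 56 h after 12 Gy to the whole body (IR). Organoids hold epithelium only, without the immune and stromal cells of the tissue, and nothing in the labels says that replicate libraries came from separate animals, so their spread may be technical.

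A gasdermin is made as an inactive protein whose C-terminal part holds the N-terminal part in check. When a protease cuts the linker between them, the N-terminal part moves to the membrane and forms pores, through which cytokines leave the cell and which can end in the lytic death called pyroptosis. Gsdmd is the substrate of the inflammasome caspases Casp1 and Casp4, and the Gsdmc genes are expressed in intestinal epithelium, where they are known for their induction in the type 2 response to worms.

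The Gsdmc genes stand side by side on chromosome 15. In the RefSeq annotation (GRCm38.p6) the order is Gsdmc, Gsdmc2, Gsdmcl1, Gsdmc3, Gsdmcl2, Gsdmc4 and Gsdmcl-ps, with the pseudogene 1700065I16Rik between the first and the second. Gsdmcl1, Gsdmcl2 and Gsdmcl-ps are transcribed pseudogenes, and Gsdmd lies elsewhere on the same chromosome. Of the members, RefSeq's promoter table held Gsdmc3. Its upstream bases are shown because the Gsdmc genes were high and low in the same single-cell libraries. The sequence runs over the 250 bases before the annotated start, on the minus strand, at chr15:63878559-63878808, with the TATATAA motif in capitals.
Gsdmc3: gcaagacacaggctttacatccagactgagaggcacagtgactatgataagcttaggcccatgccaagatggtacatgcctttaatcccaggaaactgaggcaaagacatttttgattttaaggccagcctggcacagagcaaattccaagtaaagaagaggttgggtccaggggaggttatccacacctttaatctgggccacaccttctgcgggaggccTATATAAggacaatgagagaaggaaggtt
The motif lies 29 bases before the start. On either strand it occurs in 3.04% of 32851 RefSeq promoters of the same length. CAGAC, the short element bound by SMAD proteins, matched 229 bases before the start, and 42.2% of promoters hold it. The STAT-type patterns TTCNNNGAA and its form with 1 more N, found in 7.02 and 5.85% of promoters, had no match in these 250 bases.

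Across the bulk tables, 11040 to 11361 genes per library lay above 1 FPKM (fragment counts scaled for transcript length and library depth). The single-cell libraries kept 699 to 4283 cells with median depths of 6709 to 14399 UMIs (unique molecular identifiers, counts of captured transcripts). At most 1 cell barcode was shared between any of 21 pairs of libraries. The organoids expressed the enterocyte and stem markers of intestinal epithelium, and the summed level of 5 immune markers (Ptprc, Cd3e, Cd79a, Lyz2 and C1qa) was at most 10.0 FPKM in bulk and 1.14 CPM in single cells (CPM, a gene's UMIs scaled to the library's total).

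Gsdmd was the abundant gasdermin of the organoids, and at D7 it was higher with TGFB1 in every library. In D7 non-IR organoids it was at 81.1, 83.1 and 84.5 FPKM with vehicle and at 190.0, 185.8 and 191.1 FPKM with TGFB1. The means were 82.9 ± 1.71 and 189 ± 2.80 FPKM (SD, n = 3), a ratio of 2.28, and the groups did not overlap. Groups that did not overlap and were at least 2-fold higher with TGFB1 were seen in 5.52% of the 11330 genes of this table whose mean reached 1 FPKM.

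In D7 IR organoids, Gsdmd was at 41.2, 40.7 and 42.1 FPKM with vehicle and at 177, 180.3 and 181 FPKM with TGFB1. The means were 41.3 ± 0.707 and 179 ± 2.46 FPKM (SD, n = 3), a ratio of 4.34. The lowest TGFB1 library was again far above the highest vehicle library, as for 7.82% of 11258 genes by the same measure (no overlap, at least 2-fold higher). On the log2(FPKM + 1) scale the change was 2.09 here and 1.18 in D7 non-IR, and 1.67 and 4.25% of genes had a larger rise. Whether these changes differ was not tested.

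At D11 the Gsdmd groups overlapped. The values were 65.8, 75.2 and 88.8 FPKM with vehicle and 67.7, 72.5 and 79.8 FPKM with TGFB1. The means were 76.6 ± 11.6 and 73.3 ± 6.12 FPKM (SD, n = 3), a log2 change of -0.05, which turned to 0.06 without vehicle replicate 3.

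**Figure D1:**
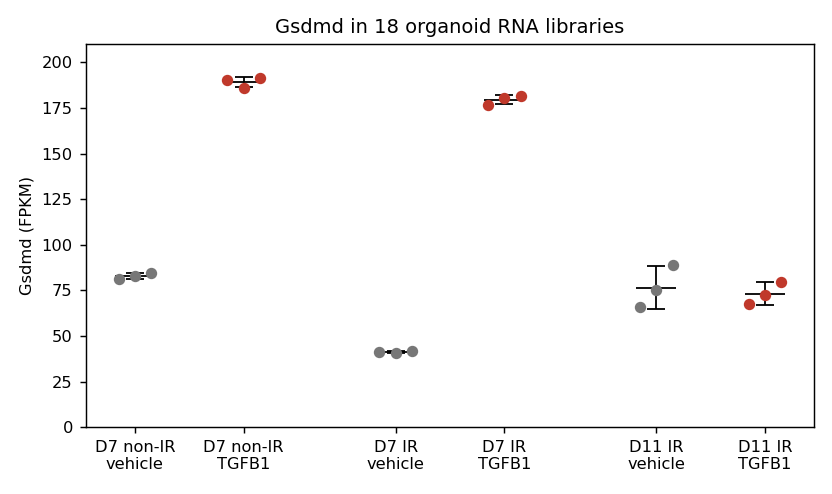
Gsdmd level (FPKM, vertical axis) in each of 18 bulk libraries, by group; points are libraries, and the horizontal mark and bar give the mean and SD of 3. TGFB1 libraries of both D7 conditions sit between 177 and 191 FPKM, above all vehicle libraries, and the D11 groups overlap.

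Set side by side over the tables, the order of group means was D7 non-IR TGFB1, D7 IR TGFB1, D7 non-IR vehicle, D11 IR vehicle, D11 IR TGFB1 and D7 IR vehicle. Both D7 TGFB1 groups were near each other (185.8 to 191.1 and 177 to 181 FPKM) while their vehicle groups were 82.9 and 41.3 FPKM, so the larger ratio after irradiation went with a lower vehicle level. The D11 vehicle libraries overlapped both those of D7 non-IR vehicle and those of D11 TGFB1, so these neighbours do not differ beyond their spread, while the D11 TGFB1 libraries (67.7 to 79.8 FPKM) lay below D7 non-IR vehicle (81.1 to 84.5 FPKM). Tables were normalized separately, and levels across them carry no test.

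In bulk RNA, a change in the share of a cell type cannot be told apart from a change in RNA per cell. Several marker lists differed between the same groups as Gsdmd. The summed level of 4 villus tip markers (Ada, Nt5e, Apoa4 and Krt20) was 263 to 277 FPKM with vehicle and 696 to 751 FPKM with TGFB1 in D7 non-IR, 1686 to 1852 and 4315 to 4441 FPKM in the irradiated D7 table, and 171 to 355 and 199 to 253 FPKM at D11. Between the vehicle groups of D7 it ran against Gsdmd, being higher in D7 IR, where Gsdmd was lower. The regenerative markers Clu, Anxa1, Ly6a, Il33 and Krt7 summed to 449 to 488 FPKM with vehicle and 3706 to 3845 FPKM with TGFB1 in D7 non-IR and to 499.8 to 525 and 5744 to 6201 FPKM in D7 IR. At D11, where the Gsdmd groups overlapped, they summed to 411 to 519.9 and 5547 to 6608 FPKM. The 5 stem markers were lower with TGFB1 in D7 non-IR (581 to 649 and 241 to 269 FPKM) and D7 IR (853 to 885 and 289 to 367 FPKM) and higher at D11 (399 to 515 and 548 to 695 FPKM). The 6 enterocyte markers were lower with TGFB1 in D7 non-IR (3014 to 3156 and 1188 to 1288 FPKM) and higher in D7 IR (10706 to 11378 and 14531 to 15357 FPKM). At D11 they were lower with TGFB1 (3112 to 5501 and 1763 to 2117 FPKM), where the Gsdmd groups overlapped. No marker of these lists was listed at 0, and the part of cell makeup in the Gsdmd values was not tested.

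Among 11472 other genes, those whose 6 group means came closest to Gsdmd, each gene centred on its own mean, were Map1lc3a, Lamb3 and Rassf10. Their root-mean-square differences from Gsdmd were 0.146, 0.164 and 0.205 on the log2 scale. Map1lc3a, an autophagosome protein, had means of 24.2 and 53.3 FPKM in D7 non-IR, 15.6 and 56.8 FPKM in D7 IR and 25.4 and 22 FPKM at D11, vehicle first. Lamb3, a laminin chain of the basement membrane, had 46.7 and 131, 23.3 and 98.5, and 41.9 and 53.5 FPKM.

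In single cells of irradiated organoids, Gsdmd was at 41.7 CPM at 0 h, 69.3 at 6 h, 136.5 at 15 h and 146.7 at 24 h of TGFB1. Exact Poisson 95% intervals, which cover counting error only, were 39.3 to 44.2, 66.5 to 72.2, 132 to 141 and 142 to 151. There was 1 library per time, so these differences have no replicate check. Relative to 0 h the ratios were 1.66, 3.27 and 3.52, and most of the difference was present at 15 h, since 24 h exceeded 15 h by a ratio of 1.07. Genes at least 2-fold higher than at 0 h made up 1.25% at 6 h, 2.67% at 15 h and 5.41% at 24 h of those with at least 10 CPM.

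More cells held Gsdmd as well. After each cell was thinned to 2000 UMIs, 7.78% of 2932 cells had a Gsdmd UMI at 0 h, 12.7% of 4280 at 6 h, 22.5% of 2890 at 15 h and 25.97% of 2218 at 24 h. Without thinning, 809, 1497, 1738 and 1607 cells had at least 1.

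Clusters made without the members showed where Gsdmd stood. Cluster 3, proliferating-like (Mki67, Top2a and Ccnb1 among its leading genes), had 6.74 (1.39 to 19.7) CPM at 0 h on 3 UMIs in 67 cells, then 39.9, 75.6 and 77.2 at 6, 15 and 24 h. Cluster 4, stem-like (Olfm4), had 37.9, 77.7 and 106 at 6, 15 and 24 h. It held only 15 cells at 0 h, but stem was also the best marker list of the unnamed cluster 6, described below. In cluster 1, enterocyte-like (Fabp1), the values were 93.1, 111, 178 and 143. Cluster 8, also enterocyte-like (Apoa1), had 118 at 0 h in 45 cells, then 115, 200 and 205.

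Cluster 7, regenerative-like (Anxa1, with the villus tip marker Ada also leading), had 121 CPM of Gsdmd already at 0 h (interval 102 to 144) and 144 at 24 h (134 to 155). The highest level among clusters with at least 50 cells, 255, was in cluster 9 at 24 h, an unnamed cluster led by small nuclear RNAs. Over clusters with at least 50 cells, Gsdmd ran from 6.74 to 121 CPM at 0 h and from 77.2 to 255 CPM at 24 h. Most 0 h cells (1152 and 1134 of 2932) fell into the unnamed clusters 5 and 6, with 56.7 and 14.1 CPM, which held at most 3 cells each at 24 h. For those cells time and cluster cannot be told apart.

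In sorted Ki67-RFP cells, Gsdmd was also higher after irradiation. It was at 13.1 (11.7 to 14.6) CPM in the non-IR library and at 37.9 (34.7 to 41.3) and 64.5 (60.1 to 69.1) in the 2 IR libraries. The ratios were 2.90 (2.52 to 3.34) and 4.93 (4.34 to 5.62), and 10.4% of 9266 genes were at least 2-fold higher in both IR libraries. The IR libraries themselves differed by a ratio of 1.70 (1.52 to 1.902), beyond counting error. Their enterocyte and villus tip markers differed as well, with sums of 631 and 1713 and of 165 and 526 CPM, and the part of cell makeup was not tested. Shares of cells with a Gsdmd UMI at 2000 UMIs per cell were 1.896, 8.48 and 12.0%.

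With 1 non-IR library there is no replicate of the control. Crypts of irradiated mice were passed through a wider strainer than those of the control, per the labels, and strainer and irradiation cannot be told apart. The goblet-like cluster was the only one with more than 1 cell from both conditions, and there Gsdmd was at 7.70 (2.50 to 17.96) CPM in 59 non-IR cells and at 31.8 (19.7 to 48.6) and 39.9 (22.3 to 65.8) in 43 and 22 IR cells.

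**Figure D2:**
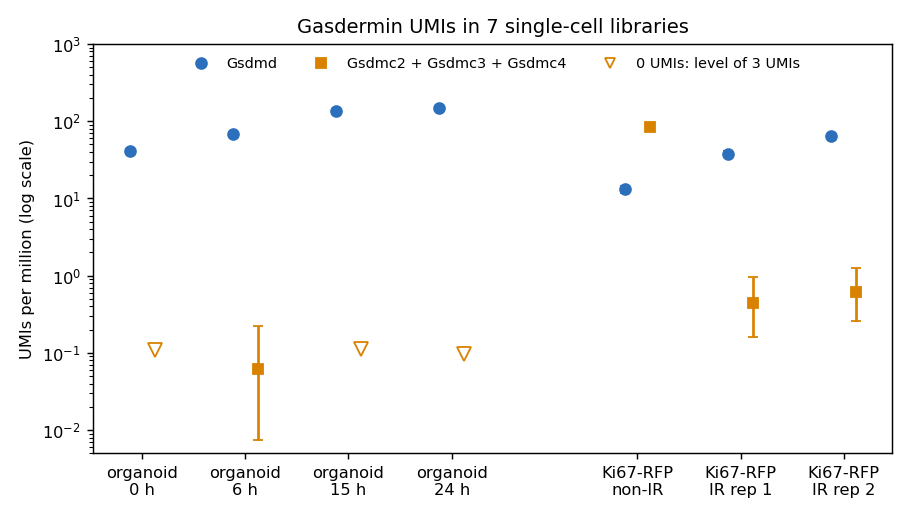
CPM (log axis) of Gsdmd and of summed Gsdmc2, Gsdmc3 and Gsdmc4 in 7 single-cell libraries, with exact Poisson 95% intervals; open triangles mark libraries with 0 UMIs at the level that 3 UMIs would give. Gsdmd lies between 13.1 and 147 in all libraries, whereas the Gsdmc sum reaches 84.3 in the non-irradiated Ki67-RFP library and is below 1 in the others.

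The Gsdmc genes were nearly silent in organoids. Gsdmc2, Gsdmc3 and Gsdmc4 were listed at 0 in 14, 15 and 6 of 18 bulk libraries, and their highest values were 0.210, 0.0335 and 0.0984 FPKM. In no table did the mean of any of the 3 reach 1 FPKM, so none entered the fits. Their neighbour Gsdmc was listed at 0 in all 18 libraries.

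What there was of Gsdmc2 and Gsdmc3 lay almost wholly in D7 non-IR organoids with TGFB1. Gsdmc2 was at 0.210, 0.0175 and 0.0780 FPKM in these 3 libraries, and it was listed at 0 in the vehicle libraries. Gsdmc3 was at 0.0335, 0.0169 and 0.0173 FPKM there and at 0 elsewhere. Gsdmc4 was at 0.0926, 0.0930 and 0.0761 FPKM with TGFB1 and at 0.0349, 0.0538 and 0.0175 FPKM with vehicle.

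These groups did not overlap. Among the genes tested in this table, all with a mean of at least 1 FPKM, 35.3% did not overlap in the same direction (higher with TGFB1). No such share was counted among genes as low as these 3. The smallest values are close to single reads, and no fold is given. With vehicle, Gsdmc4 stood near whole multiples of its lowest value, 0.0175 FPKM (2.00 and 3.08 times). With TGFB1, Gsdmc3 stood at 1.99 and 1.03 times its own lowest value. Other TGFB1 values were larger and less even, at 5.31, 5.33 and 4.36 times the lowest for Gsdmc4 and 11.95 and 4.45 times for Gsdmc2. Summed over the 3 genes, means were 0.0354 ± 0.0182 and 0.211 ± 0.1098 FPKM in D7 non-IR (SD, n = 3), 0.0253 ± 0.0438 and 0.0530 ± 0.0406 after irradiation at D7, and 0.00620 ± 0.0107 and 0.0213 ± 0.0184 at D11, with overlap in the last 2. In 4 organoid single-cell libraries together, 2 UMIs of these genes were counted, both at 6 h, among 26302400 to 32430900 UMIs per library.

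Sorted crypt cells gave the opposite picture. In the non-IR library the 3 Gsdmc genes summed to 2172 UMIs, or 84.3 (80.8 to 87.9) CPM, above Gsdmd (13.1) and Gsdme (5.94) in the same cells. Gsdmc4 gave 55.2, Gsdmc2 20.8 and Gsdmc3 8.29 CPM, in 562, 343 and 195 of 1846 cells. Gsdmc added 7.38. These are counts per gene from 3′ ends, not scaled by length.

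After irradiation they were all but gone from the Ki67-RFP cells. The IR libraries held 6 and 7.67 UMIs of Gsdmc2, Gsdmc3 and Gsdmc4 together, or 0.437 (0.160 to 0.951) and 0.621 (0.262 to 1.24) CPM. That is 193-fold (88.5 to 526) and 136-fold (67.8 to 322) lower than in the non-IR library, with intervals for counting error only. Among 9266 genes, 5.24% were at least 2-fold lower in both IR libraries and 0.0648% at least 50-fold lower.

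Those 6 genes were Car4, Gsdmc2, Gsdmc4, Defa20, Defa2 and Sfrp5, named after their values were seen. Car4, an enterocyte carbonic anhydrase, was at 106 CPM in the non-IR library and at 0.146 and 0.486 in the IR libraries. Of 8235 genes with at least 10 CPM in non-IR cells, 1 had a smaller ratio than Gsdmc2 and 2 had a smaller ratio than Gsdmc4. In the goblet-like cluster the 3 Gsdmc genes had 27 UMIs in 59 non-IR cells and 0 UMIs in the 43 and 22 IR cells.

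Marker lists of several cell types were lower after irradiation too. The 6 enterocyte markers summed to 3702 CPM in the non-IR library and to 631 and 1713 in the IR libraries, 5.87-fold and 2.16-fold lower. The Paneth markers summed to 2566, 779 and 951 CPM and the stem markers to 1853, 935 and 475 CPM, both lower by a larger ratio than the enterocyte markers in the second IR library. The enterocyte-like cluster 2 (described below) held 51.3% of the Gsdmc UMIs of the non-IR library. It had 472 cells of that library and 0 and 1 cells of the IR libraries. The part of cell makeup in the Gsdmc values was not tested. Per 1000 enterocyte-marker UMIs there were 22.8 Gsdmc UMIs in non-IR cells and 0.693 and 0.362 in IR cells. In the organoid libraries the enterocyte markers summed to 17179 to 21579 CPM, with 0 Gsdmc UMIs at 0, 15 and 24 h.

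**Figure D3:**
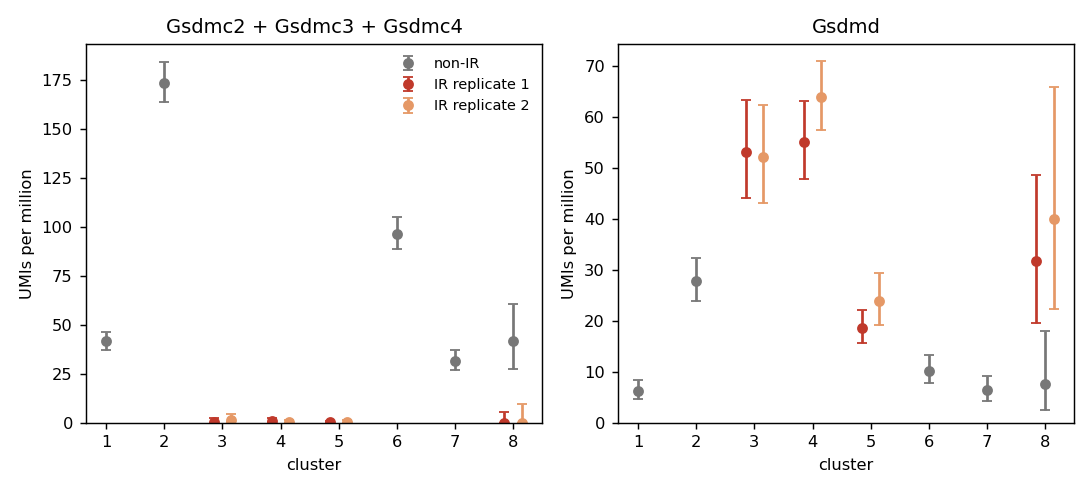
CPM of the summed Gsdmc genes (left) and Gsdmd (right) by cluster of the Ki67-RFP cells, with exact Poisson 95% intervals; gray is the non-IR library, red and orange the IR libraries, for clusters with at least 20 cells of a library. The Gsdmc sum is highest in cluster 2 (174), and Gsdmd is highest in clusters 3 and 4 of the IR libraries.

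Within the non-IR library the Gsdmc genes were uneven over cells. Cluster 2, enterocyte-like and led by Reg1, Reg3a and Fabp1, held 25.6% of the cells and 51.3% of the Gsdmc UMIs, at 174 (163 to 184) CPM. Cluster 6, unnamed and led by mitotic genes such as Nusap1, Ube2c and Cdc20, had 96.5 (88.6 to 105). The stem-like clusters 1 and 7, led by Olfm4, had 41.5 (37.1 to 46.3) and 31.6 (26.8 to 37.1), and the goblet-like cluster 8 had 41.6 (27.4 to 60.5).

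At 2000 UMIs per cell, 25.4% of cells of cluster 2 had a Gsdmc UMI, against 13.7% in cluster 6, 5.26 and 3.51% in clusters 1 and 7 and 0 of 59 in cluster 8, where the exact binomial 95% interval reaches 6.06%. Median depths of these clusters were 11538, 14985, 11386, 15376 and 9089 UMIs. The intervals of cluster 2 (21.6 to 29.6%) and cluster 6 (10.2 to 17.8%) stood apart from each other and from the rest, and those of clusters 1, 7 and 8 overlapped. Free RNA was not measured. The 185 cells with most Gsdmc held 65.8% of its UMIs, and the highest cell had 28.

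Gsdmd had the same order at its top among the non-IR clusters, at 27.9 (24.0 to 32.3) CPM in cluster 2 and 10.2 (7.73 to 13.2) in cluster 6. In clusters 1, 7 and 8 it was at 6.33, 6.42 and 7.70. Among IR cells it was at 55.1 and 63.9 in cluster 4, regenerative-like (Il33 and Ly6a among its leading genes), at 53.1 and 52.1 in cluster 3 and at 18.6 and 23.9 in cluster 5, both unnamed. All clusters but the goblet-like one came from 1 condition, except for 1 IR cell in cluster 2, so cluster and condition cannot be told apart there. The 35 cells of the second IR library outside these clusters, 5.01% of its cells, held 25.3% of its Gsdmd UMIs, against 1.67% of cells and 8.45% of UMIs in the first.

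Cells with and without Gsdmc in the non-IR library were also compared for the marker genes. After thinning, 216 cells had a UMI of Gsdmc2, Gsdmc3 or Gsdmc4 and 1630 had none. The brush-border enzyme Sis was found in 51.9% of the first and 23.7% of the second, and the fatty acid binding protein Fabp1 in 69.9 and 50.2%; all 6 enterocyte markers were in a larger share of the first. The villus tip markers were mixed, with Krt20 in 19.4 and 7.98%, Apoa4 in 16.2 and 12.5%, Ada in 1.39 and 1.78% and Nt5e in 0 and 0.245%. Stem markers went the other way, with Olfm4 in 31.9 and 57.3%, Smoc2 in 7.41 and 21.5% and Lgr5 in 0.463 and 2.76%. The Paneth gene Defa24 was in 55.1 and 55.8%, and Gsdmd in 1.39 and 1.96%. Cells of 1 library are not replicates, and these shares are a description.

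The Gsdmc genes are paralogs that resemble each other in sequence, and their values in the deposited matrices include entries that are not whole numbers. The sources used here do not say how these entries were made. In the non-IR library 33.1% of the UMIs of Gsdmc2, Gsdmc3 and Gsdmc4 stood in entries that were not whole numbers (off by more than 0.001), against 14.2% over all genes. Counting only the remainder after the decimal point, the share was 8.19%, and for Gsdmc4 it was 2.31%. By UMIs in fractional entries, Gsdmc3 was the least certain, with 67.7% of its UMIs in such entries, then Gsdmc2 with 46.2%, Gsdmc with 34.2% and Gsdmc4 with 22.98%. Gsdmd and Gsdme had 0%.

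**Figure D4:**
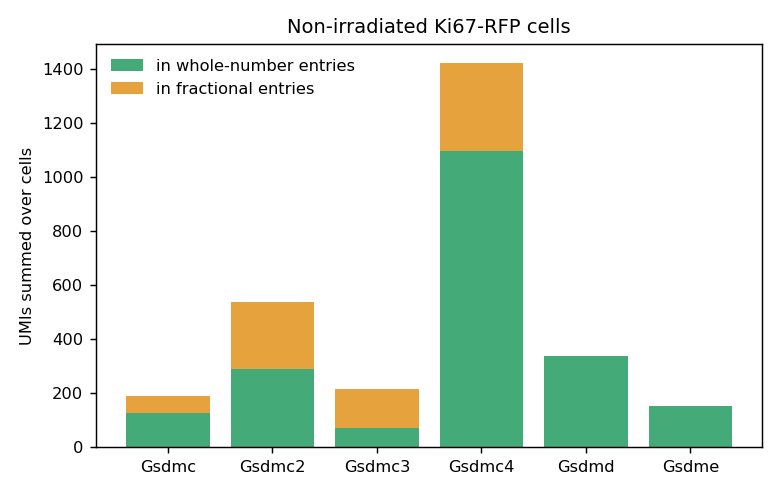
UMIs summed over the 1846 non-irradiated Ki67-RFP cells for 6 gasdermins (vertical axis), split into whole-number (green) and fractional (orange) entries. Gsdmc3 has more UMIs in fractional than in whole entries, Gsdmc4 has mostly whole entries, and Gsdmd and Gsdme have no fractional entries.

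The fractions added up within the family. In all 184 cells with a fractional entry of Gsdmc, Gsdmc2, Gsdmc3 or Gsdmc4, the sum over the 4 genes was whole, and it was whole in 116 of 184 when Gsdmc was left out. No cell had just 1 of the 4 genes fractional. Gsdmc2 was fractional in 93.8% of the 145 cells where Gsdmc3 was, and Gsdmc4 in 26.2% of them. The sum over the 4 genes, 2362 UMIs or 91.7 CPM, was thus a whole number in every such cell, and the split among them, most of all that of Gsdmc3, is uncertain.

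Whole entries alone still gave each gene: 1096 UMIs for Gsdmc4, 288 for Gsdmc2, 125 for Gsdmc and 69 for Gsdmc3. By whole entries, 138 of 568 cells held 2 or more of the 3 members; with fractional entries included it was 313 of 685. In the IR libraries, 16.7% of 6 UMIs and 34.8% of 7.67 UMIs were in fractional entries, and these libraries had 21.8 and 20.5% over all genes. In the organoids 1 of 2 UMIs was.

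The other gasdermins were low in organoids. Gsdme was at 1.01 to 3.46 FPKM over the 18 libraries, while Gsdma and Gsdma2 reached 0.294 and 0.626 FPKM, Pjvk 0.117 FPKM, and Gsdma3 was listed at 0 throughout. Gsdme fell at D11 from 3.19 ± 0.350 to 1.54 ± 0.104 FPKM (SD, n = 3), a log2 difference of -0.72 (limma adjusted p 0.000242). In D7 IR it fell by 0.25 (limma adjusted p 0.0131), a call lost without vehicle replicate 3 (-0.23), and in D7 non-IR it did not pass (0.21, limma adjusted p 0.0568). In Ki67-RFP cells Gsdme went from 5.94 CPM in the non-IR library to 1.89 and 2.84 in the IR libraries.

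A list of 55 genes around pyroptosis was then read in the bulk tables, with limma calls at a Benjamini-Hochberg adjusted p under 0.05 over all genes. In D7 non-IR, 21 of 39 measured genes rose and 9 fell (68.2% of all genes were called, 33.3% higher and 34.9% lower). In D7 IR 24 of 38 rose and 8 fell (75.5% called, 35.8% higher and 39.7% lower), and at D11 13 of 36 rose and 13 fell (63.9% called, 32.3% higher and 31.6% lower). Median log2 changes of the list were 0.23, 0.35 and -0.03, beside -0.02, -0.03 and 0.01 over all genes. The list was chosen with results of these data known.

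Among inflammasome sensors and adaptors, 6 of 12 rose and 3 fell in D7 non-IR, 7 of 11 and 3 in D7 IR, and 3 of 9 and 3 at D11. Nlrp6, a sensor of the gut epithelium, fell in each table (146 to 70.3, 150.4 to 78.3 and 91.4 to 54.3 FPKM, log2 changes -1.05, -0.94 and -0.75, limma adjusted p at most 0.0059). Pycard, the adaptor that joins sensors to Casp1, fell by 0.16, 0.29 and 0.62 on the log2 scale (limma adjusted p at most 0.00183); the first of these did not pass in a joint fit of 18 libraries. Nek7, a kinase that binds Nlrp3, rose in each table (log2 changes 1.11, 1.14 and 1.30, limma adjusted p at most 4.06e-06). Nlrp3 itself was too low to be tested in any table, with group means of at most 0.0162 FPKM. Nlrp10 rose in D7 non-IR from 0.655 to 3.53 FPKM (1.46, limma adjusted p 8.94e-08) and was below 1 FPKM elsewhere.

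Among the caspases that cut gasdermins, the direction differed between tables. Casp1, which cuts Gsdmd and Il18, fell from 59.1 ± 1.21 to 39.3 ± 0.250 FPKM in D7 non-IR, rose from 61.3 ± 2.01 to 93.6 ± 3.12 FPKM in D7 IR and fell from 64.7 ± 5.83 to 31.4 ± 3.30 FPKM at D11 (SD, n = 3). Its log2 changes were -0.57, 0.60 and -1.02 (limma adjusted p at most 1.25e-05).

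Casp4, the sensor of intracellular lipopolysaccharide, went the same way in each table, with log2 changes of -0.43, 1.09 and -0.94 (limma adjusted p at most 0.000501). Casp8, an apoptotic caspase reported to cut Gsdmd and Gsdmc, rose from 68.3 to 154 FPKM in D7 non-IR and from 37.7 to 76.7 FPKM in D7 IR (log2 changes 1.16 and 1.00, limma adjusted p at most 1.35e-08). At D11 Casp8 fell by 0.27 (limma adjusted p 0.0223), a call lost without vehicle replicate 2 (-0.26) or 3 (-0.21) or TGFB1 replicate 3 (-0.20).

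**Figure D5:**
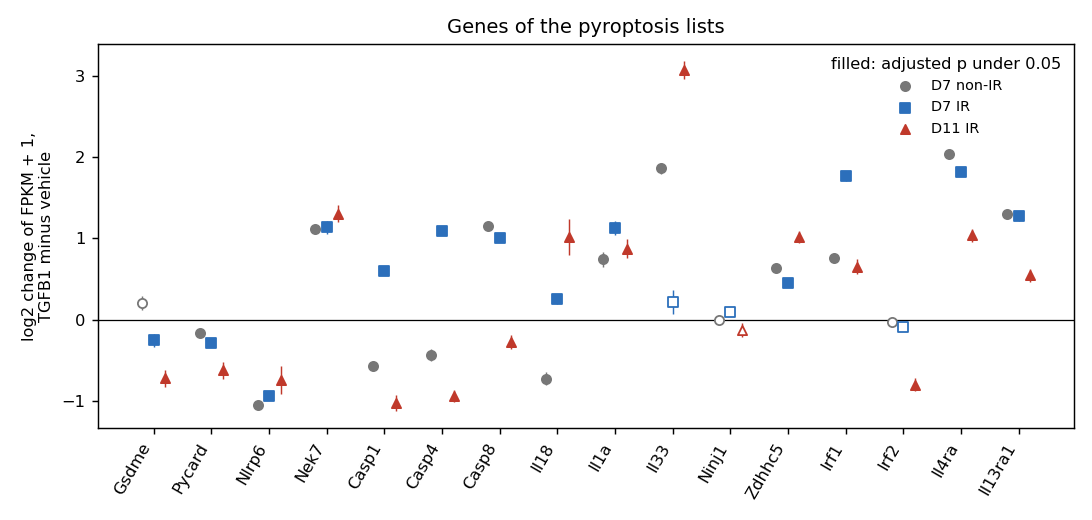
Change with TGFB1 (log2 of FPKM + 1, TGFB1 minus vehicle, vertical axis; bars are standard errors) of 16 genes of the pathway in 3 bulk tables; filled symbols passed limma's test. Casp1 and Casp4 lie below 0 in D7 non-IR and D11 IR and above 0 in D7 IR, whereas Nek7, Irf1, Il4ra and Il13ra1 lie above 0 in each table.

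Of 4 measured cytokines and alarmins, 2 rose and 2 fell in D7 non-IR, 2 rose and 1 fell in D7 IR, and 3 rose and 1 fell at D11. Il18 fell in D7 non-IR from 21.2 to 12.5 FPKM (log2 change -0.72, limma adjusted p 1.17e-05). It rose in D7 IR from 53.4 to 63.8 FPKM (0.25, limma adjusted p 0.00316), which did not pass in a joint fit of 18 libraries, and at D11 from 10.8 to 22.2 FPKM (1.02, limma adjusted p 0.00593). Il33, an alarmin, rose in D7 non-IR from 4.67 to 19.6 FPKM and at D11 from 0.440 to 11.0 FPKM (1.86 and 3.07, limma adjusted p at most 3.86e-08). In D7 IR it was at 1.04 and 1.33 FPKM (limma adjusted p 0.218). Il1a rose in D7 IR from 0.546 to 2.39 FPKM (1.13, limma adjusted p 5.32e-07).

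Of 6 measured genes of membrane rupture, repair and palmitoylation, 4 rose and 0 fell in both D7 tables, and 1 rose and 1 fell at D11. Ninj1, which ruptures the membrane after pores have formed, did not pass in any table (log2 changes 0.00, 0.10 and -0.13, limma adjusted p 0.964, 0.0587 and 0.205). Zdhhc5, a palmitoyltransferase, rose at D11 from 26.3 to 54.3 FPKM (1.02, limma adjusted p 2.42e-06). All 3 necroptosis genes rose at D7, and 2 of them rose at D11. Of 3 transcription factors, 2 rose in each D7 table, and 1 rose and 1 fell at D11. Irf1 rose in D7 IR from 10.7 to 38.7 FPKM (1.76, limma adjusted p 1.05e-09). Irf2, known as an activator of Gsdmd transcription, did not pass at D7 (-0.03 and -0.09, limma adjusted p 0.588 and 0.137) and fell at D11 from 54.1 to 30.8 FPKM (-0.80, limma adjusted p 1.65e-05).

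Type 2 response genes were added because worms induce the Gsdmc genes through this pathway. Il4ra, the receptor chain shared by the type 2 cytokines, rose in each table, from 5.92 to 27.4, from 8.44 to 32.2 and from 8.63 to 18.7 FPKM (log2 changes 2.03, 1.81 and 1.04, limma adjusted p at most 3.31e-06). Its partner Il13ra1 rose at D7 from 29.2 to 73.3 and from 16.0 to 40.0 FPKM (1.30 and 1.27, limma adjusted p at most 8.22e-09). Of 5 measured genes of this list, 2 rose in each table, and 1, 3 and 2 fell, in the order of the tables above.

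In single cells with 1 library per time, 2 of 29 list genes were at least 2-fold higher at 24 h than at 0 h, and none was 2-fold lower (5.41 and 1.78% of all genes). They were Irf1 (25.5 and 57.6 CPM) and Il4ra (10.9 and 30.9), both named after their values were seen. In Ki67-RFP cells, 3 of 33 were at least 2-fold higher in both IR libraries (Casp4, Il33 and Il4ra) and 4 were at least 2-fold lower (10.4 and 5.24% of all genes). Among the 4 were Pycard (1586 CPM in non-IR, 378 and 331 in IR), Casp1 (149, 58.3 and 55.8) and Nlrp6 (132, 58.5 and 53.1). Casp4 went from 8.57 to 22.1 and 23.8 CPM, while Casp1, the other inflammasome caspase, was lower in the same libraries in which Gsdmd was higher. In the organoid single cells, Nlrp6 was at 177, 186, 192 and 144 CPM at 0, 6, 15 and 24 h. Pycard was at 555, 804, 757 and 492 CPM at the same times.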

How the data were processed

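The bulk values are FPKM deposited by the authors, in 3 tables of 6 libraries each (0 columns left unmapped). The single-cell matrices hold expected counts of UMIs deposited by the authors, many of them not whole, by a step the sources used here do not name; they were summed without rounding. Per the submitters' processing notes, TopHat2 2.1.0, Cuffnorm 2.2.1, Cuffdiff 2.2.1, STAR 2.7.10a and STARsolo were among the tools used; the sources used here do not say which file each made. Read depth of the bulk libraries is unknown, but the steps of their low values put a read at 0.871 to 1.09 times its worth in vehicle replicate 1 of the table, a rough estimate that 9.34 to 21.4% of low genes shared. ATAC-seq peaks were not analysed here.

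Members and lists were chosen with earlier results of these data known. Bulk values were taken as log2(FPKM + 1), so changes of low genes are understated, and non-member genes whose mean reached 1 FPKM were tested with limma 3.58.1 (trend, robust, R 4.3.3), per table, two-sided, with Benjamini-Hochberg adjustment over all genes tested. On simulated data of each table, 98, 99 and 87% of genes changed by 1 on the log2 scale were recovered (D7 non-IR, D7 IR, D11 IR). For a change of 0.5 the shares were 84, 86 and 49%, so smaller changes can be missed, most of all at D11. No 2 bulk libraries were identical. The genes named are the members, Casp1, Casp4, Casp8, Il18, Pycard, Ninj1, Irf2 and Gsdme, up to 10 further list genes per table called at 2-fold or more, and the 3 genes with group means most like Gsdmd; some genes this rule names are not reported here.

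Cells entered with at least 500 UMIs and 250 genes and no more than 20% of UMIs mitochondrial. Levels are CPM of summed UMIs with exact Poisson 95% intervals, ratios have exact conditional binomial intervals, and shares of cells were taken after thinning to 2000 UMIs; 3 cells of the 6 h library were shallower and left out of those shares. No doublet caller was run. Cells of each experiment were clustered without the members (2000 variable genes, 30 principal components, 15 neighbours, leidenalg 0.10.2 at resolution 0.6); clusters under 50 cells are not described. A cluster was named from its best marker list if the median fold was at least 2, at least 3 markers were detected and 1 was among its 10 leading genes (this last limit was set after seeing the data). Alternatives changed the pseudocount (0.1, 0.01), filter, scaling, replicate block, libraries fitted and cell filter.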

Additional observations from a re-analysis of the deposited data

Results flagged for a closer look

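For 5 genes of the pathway, every TGFB1 library lay above every vehicle library in at least 1 bulk table and below every vehicle library in at least 1 other. Log2 changes are given for D7 non-IR, D7 IR and D11 IR in turn. The difference between tables was not tested, since the tables were normalized separately. Casp1 changed by -0.57, 0.60 and -1.02, and Casp4 by -0.43, 1.09 and -0.94. Casp8 changed by 1.16, 1.00 and -0.27. Il18 changed by -0.72, 0.25 and 1.02. Gsdme had 0.21, which did not pass limma's test, -0.25 and -0.72.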

How the results depend on the processing

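The direction of Gsdmd at D7 and the near-loss of the Gsdmc genes in irradiated Ki67-RFP cells held under every alternative run. The Gsdmc ratio of IR to non-IR ran from 0.00518 to 0.00737, and each end is 1 IR library alone. The Gsdmd change in D7 non-IR was 1.11 with quantile normalization and 1.16 to 1.19 leaving out a library; in D7 IR it was 2.12 with a pseudocount of 0.1 or 0.01 or median-ratio scaling, 2.04 with quantile normalization and 2.08 to 2.11 leaving out a library. At D11 it ran from -0.16 to 0.06. The summed Gsdmc change of 0.22, 0.04 and 0.02 (D7 non-IR, D7 IR, D11) became 1.15, 0.31 and 0.18 with a pseudocount of 0.1 and 2.26, 1.42 and 0.87 with 0.01, and leaving out a library gave 0.15 to 0.27, 0.01 to 0.07 and 0.01 to 0.04. The Gsdmd ratio of IR to non-IR Ki67-RFP cells, 3.86, was 5.03 as a mean over cells and 2.90 to 4.93 with 1 IR library. The fractional share of Gsdmc over the Ki67-RFP libraries, 33.1%, was 8.31% when only the remainder after the decimal point was counted. Calls on the list (30, 32 and 26) were 27 to 30, 30 to 34 and 23 to 25 leaving out a library and 31, 32 and 26 with a replicate block. Same-numbered libraries correlated at -0.0856 to 0.213 in their deviations, over 0.1 in 2 of 9 pairs. Of the vehicle libraries, 4 of 9 matched their own number best. With 3 libraries per group this neither shows nor excludes a pairing by number, and the main fits used none. In D7 non-IR, Ninj1 turned to -0.016 with quantile normalization and, over libraries left out, ran from -0.0243 to 0.0271, below 0 without vehicle replicate 1, vehicle replicate 2 or TGFB1 replicate 1. Irf2 ran from -0.0597 to 0.0107, above 0 without vehicle replicate 1 or TGFB1 replicate 1. Ninj1 passed in D7 IR with median-ratio scaling (0.13) or without TGFB1 replicate 3 (0.11) and at D11 without vehicle replicate 1 (-0.21), and Gsdme passed in D7 non-IR without vehicle replicate 2 (0.26) or with all 18 libraries in one fit. The causes were not tested. No ratio of Gsdmc at 24 h to 0 h could be formed, since both had 0 UMIs, and alternatives on ATAC-seq peaks were not run.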
